A study of Mus musculus with 2 samples.

Results

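The major urinary protein (Mup) genes form a cluster on mouse chromosome 4 and encode small secreted lipocalins. The genes described here were those whose name in the array design starts with Mup followed by a digit, read from spots that are not controls. They comprised 11 of the 29923 genes and 13 of the 39428 probes measured on both arrays, namely Mup1, Mup2, Mup3, Mup4, Mup5, Mup6, Mup11, Mup17, Mup19, Mup20 and Mup21, with 2 probes each for Mup4 and Mup20. The family was chosen by its high ratio of Pparg-cKO over control on these same arrays, so this ratio is described below and was not tested.

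Total RNA of pooled ureters from NMRI embryos at E18.5 was hybridised to 2 two-colour arrays, and 200 ng of RNA entered each labelling. Pparg-cKO embryos were Pax2-cre/+; Pparg(fl/fl), whereas controls were Pparg(fl/?), with a floxed allele beside an allele that the labels do not state, and per the methods of the study they carried no cre. Pparg encodes a nuclear receptor of the urothelium, and the Pax2-cre transgene is active in the epithelium of the ureter but not in its mesenchyme, so each Pparg-cKO pool also held cells in which the floxed alleles were kept. Each array held a Pparg-cKO pool against a control pool, female on replicate 1 and male on replicate 2, with the dyes exchanged, so that sex, dye orientation and array cannot be told apart. A pool holds many embryos, and the spread between the arrays stands for 1 pair of pools of each sex.

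A lipocalin folds into a barrel that holds a small hydrophobic ligand. In adult mice most Mup transcripts are made in the liver under the control of growth hormone and steroid hormones, and the proteins pass through the blood and the kidney into the urine, where they release volatile pheromones and act as scent signals themselves. Genes in the middle of the cluster are almost identical, whereas those at its edges, such as Mup4, Mup5, Mup20 and Mup21, have diverged further, and some of these are known from glands and the nose rather than the liver.

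Because the genes are so alike, a probe can detect more than the gene it is named for. All 13 probes are 60 bases long and lie on chromosome 4 between 59969824 and 61808925 (mm9, positions of the array design), 12 of them on the minus strand. The design matched 7 probes to a single RefSeq gene. It matched the Mup1 probe also to Mup2 and Mup19, the Mup17 probe to Mup16 and Mup11, the Mup19 probe to Mup17 and Mup1, the Mup2 probe to Mup1, and the Mup6 probe to Mup4. The Mup11 probe had no RefSeq match among its design accessions and lies 146 bases from the Mup2 probe. Where the probes lie relative to exons was not analysed here. A measurement named for a central gene below therefore stands for the transcripts its probe can bind, not for that gene alone.

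The sequences of 6 probes are shown first, with high, middle and low ratios among them, since their sequence decides what was read. The first pair belongs to Mup1 and to the Mup20 probe at chr4:61713671-61713730 (mm9, minus strand), whose log2 ratios of 2.75 and 2.12 were the highest with the offset described below. From the processed signals they were 3.67 and 3.56. The ratios of probes whose control pools lay at background were not ranked. These probes of Mup1 and Mup20 share no run of 12 or more bases with each other or with the 4 probes printed after them.

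Mup1: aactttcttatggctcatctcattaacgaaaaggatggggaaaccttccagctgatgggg

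Mup20: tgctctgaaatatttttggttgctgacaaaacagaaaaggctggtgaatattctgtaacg

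The Mup3 and Mup6 probes are close in sequence, with 49 identical of 54 aligned bases. Capitals mark the longest run that both hold, of 23 bases.

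Mup3: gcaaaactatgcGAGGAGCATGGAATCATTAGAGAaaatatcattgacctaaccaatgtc

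Mup6: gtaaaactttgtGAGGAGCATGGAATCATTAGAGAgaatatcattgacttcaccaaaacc

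The last pair reads the Mup4 probe at chr4:59973383-59973442 and the Mup5 probe at chr4:61496097-61496156 (mm9, minus strand). Capitals mark their longest shared run, of 12 bases.

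Mup4: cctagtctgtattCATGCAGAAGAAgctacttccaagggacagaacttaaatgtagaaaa

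Mup5: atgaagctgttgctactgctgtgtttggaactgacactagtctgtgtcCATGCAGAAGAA

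Over all 78 pairs of member probes the longest shared run had a median of 6 bases and a maximum of 24 bases, and 5 pairs shared 12 bases or more. A short run does not mean that probes read different transcripts. The Mup1 and Mup2 probes share only 6 bases, though the design matched the Mup1 probe to Mup2 as well. The longest, AAGTTCTGTGATCTGCTTTCCATC, joined the other Mup20 probe to the other Mup4 probe, and TTCCATCCTGTCTCAC, of 16 bases, joined the Mup19 probe to that same Mup4 probe.

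On the arrays, 66.2% to 77.3% of the spots in a channel were well above background, and 1 of the 52 Mup spots was left out on each array for an outlier flag. The probe of the targeted gene, Pparg, read 12357 signal units in the Pparg-cKO and 6113 in the control pool of the female array, and 12930 and 6688 in those of the male array, in the direction used here. That direction is the one of the deposited value table, whose columns are titled Pparg-cKO against control, and it is also that of the study. The dye labels as written would exchange the pools on both arrays, and every signed value below would then turn. By RNA in situ hybridisation, which does not use these dyes, the study found Krt20 strongly reduced or absent and Shh lost in mutants. In the direction used here, Krt20 and Shh had mean log2 ratios of -3.09 and -1.40, which the labels as written would make positive. In these pools fewer cells of a type and less RNA per cell cannot be told apart.

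Mup1, Mup17 and Mup19 were the family members whose signal passed 100 on both arrays, in each through the Pparg-cKO pools alone. These pools read several times higher than the control pools, none of which reached 100. The Mup1 probe (chr4:60512590-60512649) had a processed signal of 315 in the female Pparg-cKO pool and 11.97 in its control, and the male pools had 230 and 37.1. The Mup17 probe (chr4:61253019-61253078) had 148 and 13.7 in the female and 104 and 19.3 in the male pools. The Mup19 probe (chr4:61439496-61439555) had 246 and 30.2 in the female and 180 and 45.2 in the male pools. For each of these genes both Pparg-cKO pools lay above both control pools, with no overlap, as they did for 12.9% of all genes measured. All 4 spots of each probe were well above background in every pool.

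The ratios of these genes were smaller than the plain quotients of the signals. They were taken from normexp-corrected and loess-normalised intensities with an offset of 50, which pulls the ratio of dim probes towards 0, and without the offset Mup1 had 3.23 and Mup17 had 2.55 on the log2 scale. With it, Mup1 had a log2 ratio of 3.32 in the female and 2.18 in the male pair, a mean of 2.75 ± 0.81 (SD, n = 2 arrays), or 6.73-fold. Mup17 had 2.38 and 1.75, a mean of 2.06 ± 0.45 (SD, n = 2), or 4.18-fold. Mup19 had 2.29 and 1.71, a mean of 2.00 ± 0.40 (SD, n = 2), or 4.0-fold. For Mup1 the SD over the spots of an array was 0.32 and 0.16. From the processed signals alone the ratio of Mup1 was 26.3-fold (female) and 6.20-fold (male), that of Mup17 10.8-fold and 5.41-fold, and that of Mup19 8.16-fold and 3.97-fold.

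**Figure D1:**
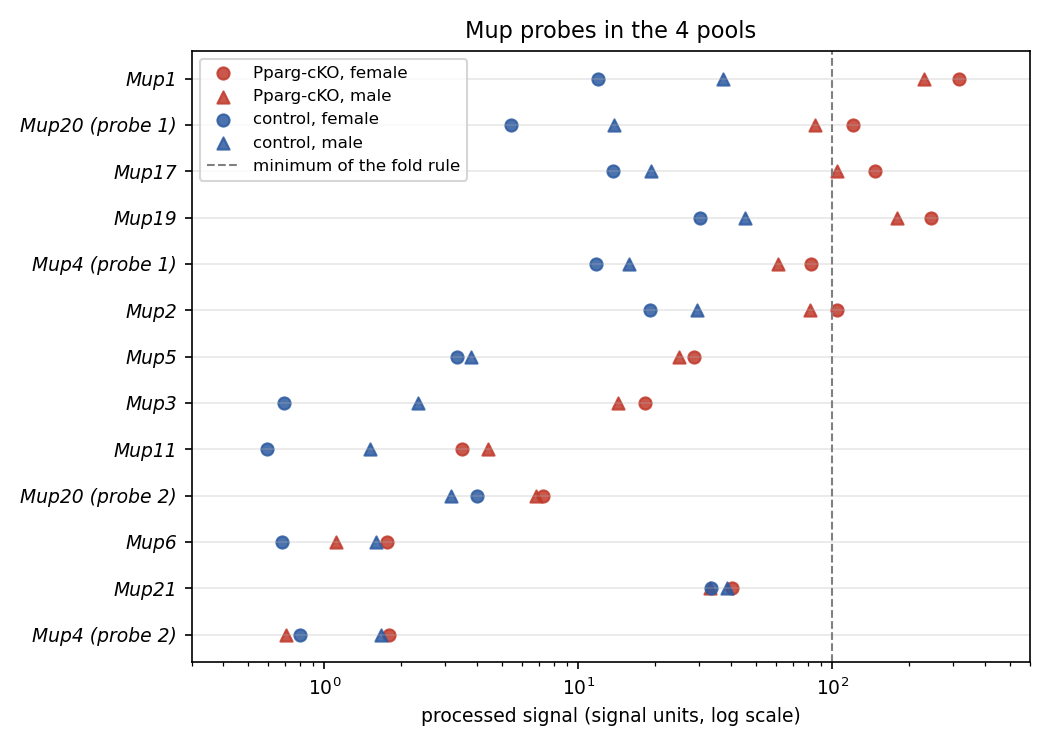
Processed signal of the 13 Mup probes (rows) in the 4 pools, in signal units on a log scale, with circles for female and triangles for male pools and the dashed line at 100 units. For Mup1 the Pparg-cKO pools sit at 230 and 315 and the control pools at 11.97 and 37.1, whereas the 4 pools of Mup21 overlap between 33.0 and 40.4. Levels are compared between pools of a probe and not between probes.

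A gene was past the fold rule when both arrays showed a change of 1.5-fold or more with the same sign and the brighter pool reached a processed signal of 100 on each of them. By this rule 3 of the 11 Mup genes were past it upward, Mup1, Mup17 and Mup19, and 0 downward. Of all genes measured, 0.371% were past it upward and 0.491% downward, and of the 14015 genes bright enough for it, 0.792% upward. Only 3 Mup genes were bright enough, each through its Pparg-cKO pools alone. Since the family was picked for this ratio, nothing is read from the difference between these shares. Just inside the signal minimum lay Mup17, at 104 in the male Pparg-cKO pool, and just outside lay Mup20 at 85.7 and Mup2 at 81.8 in the same pool.

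Mup2, Mup20 and Mup4 did not reach that signal on both arrays, and their Pparg-cKO pools also read higher. The Mup2 probe (chr4:60149741-60149800) read 105 and 19.1 in the female and 81.8 and 29.2 in the male pools, with log2 ratios of 1.67 and 1.09. Mup20 encodes darcin, a male urinary pheromone protein, and its probe printed above read 121 and 5.43 in the female and 85.7 and 13.8 in the male pools, with log2 ratios of 2.49 and 1.75. Mup4, a member known from nasal and lacrimal tissue, read 82.3 and 11.7 in the female and 61.1 and 15.8 in the male pools at the probe chr4:59969824-59969883, with log2 ratios of 1.68 and 1.27. In all 3 the Pparg-cKO pools lay above the control pools without overlap, against 12.9% of all genes measured. The mean ratios were 1.38 ± 0.41, 2.12 ± 0.52 and 1.48 ± 0.30 on the log2 scale (SD, n = 2 arrays each).

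Mup5 and Mup3 were dim in every pool, and their control signals lay at or near background. Mup5, known from the submaxillary gland, read 28.5 and 3.34 in the female and 24.9 and 3.78 in the male pools, with a log2 ratio of 1.04 on the female array. Its control signal was well above background on 3 of 4 spots of the female and on 0 of 4 spots of the male array, so that 1 of 2 arrays measured it in the control. Mup3, a liver-expressed member, read 18.3 and 14.4 in the Pparg-cKO pools, on 4 of 4 spots well above background, and was not well above background in either control pool. Its level in the Pparg-cKO pools was at least 1.69-fold higher than the lowest level that counted as well above background in the control channel, the bound being taken from loess-normalised and Aquantile-scaled channels.

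The remaining members gave little or no signal. Mup11 was not well above background in either control pool nor in the female Pparg-cKO pool, and read 4.41 in the male Pparg-cKO pool. Mup6 was not well above background in any pool, and its printed probe, which shares the 23-base run with that of Mup3, read between 0.678 and 1.76. Mup21 was the exception among measured members, with all spots well above background and ratios of opposite sign on the arrays. Its probe (chr4:61808866-61808925) read 40.4 and 33.4 in the female and 33.0 and 38.5 in the male pools, with log2 ratios of 0.21 and -0.13. The pools of Mup21 overlapped, and its mean ratio of 0.04 was smaller than the SD of 0.24 over the arrays.

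Across the family, 8 of 11 genes had both Pparg-cKO pools well above background and a ratio above 0 on both arrays, at the brightest probe of each gene, as had 18.2% of all genes measured. The signs of Mup6 and Mup11, at or near background, were not read. The family was chosen for this contrast, so nothing is read from these shares. The median log2 ratio over the 11 genes was 1.38, against 0.0056 over all genes measured, and over the 13 probes it was 1.00. The median gene was Mup2, measured in every pool, and the median probe that of Mup5, whose male control was not well above background. In all, 9 of the 11 genes and 10 of the 13 probes passed the filter for tests elsewhere, which asks that each array have 1 or both channels well above background, and a dim gene can pass that filter through its Pparg-cKO pools alone.

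**Figure D2:**
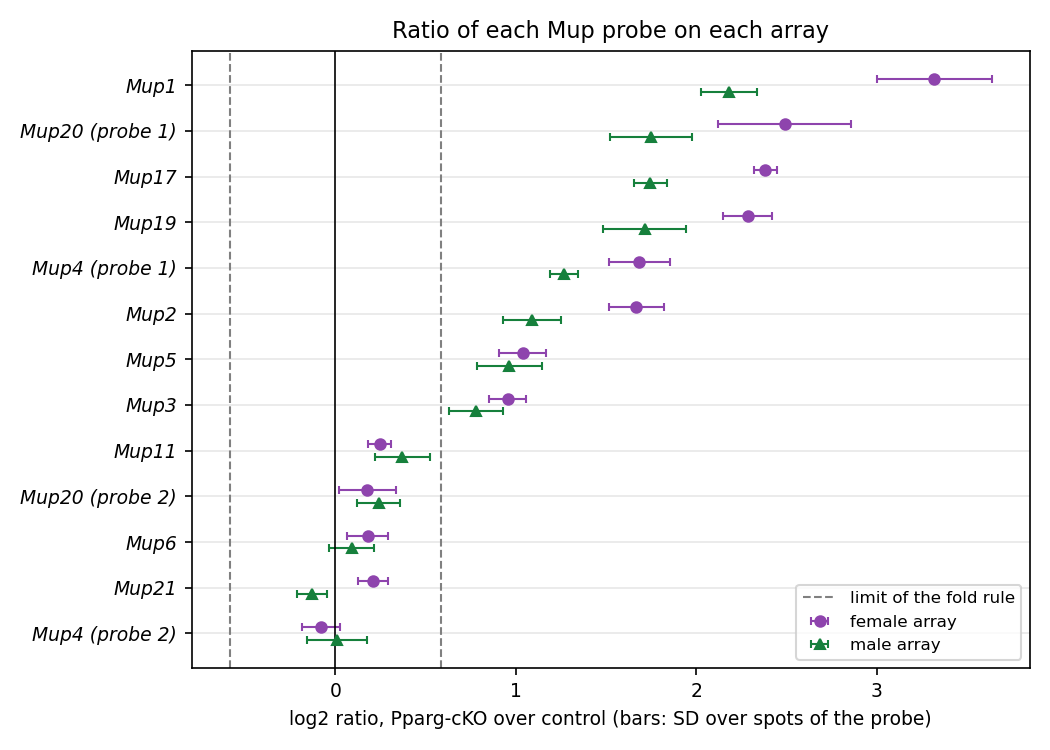
Log2 ratio of Pparg-cKO over control for each Mup probe (rows) on the female array (circles) and the male array (triangles), where bars are the SD over the kept spots of the probe and dashed lines mark 1.5-fold. Mup1 reaches 3.32 and 2.18, Mup21 lies at 0.21 and -0.13, and Mup4 and Mup20 each have 1 probe far from 0 and 1 near it, the latter not well above background in every pool. Ratios of Mup3, Mup5, Mup6 and Mup11 rest on control pools at background on 1 or both arrays.

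Mup20 and Mup4 each had a second, dimmer probe. For Mup20, the second probe (chr4:61711407-61711466) read 7.24 and 4.0 in the female and 6.83 and 3.16 in the male pools, with log2 ratios of 0.18 and 0.24. It was well above background on 2 of 4 spots of the female Pparg-cKO, 3 of 4 of the female control and 0 of 4 of the male control pool, and the quotients of its processed signals were 1.81-fold and 2.17-fold, so it was not set against the first. For Mup4, the printed probe was not well above background in any pool, so its ratio was not read. In both genes the probe with the higher mean brightness represents the gene in the counts above. With the median over the probes of a gene, the family median fell from 1.38 to 1.00.

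The ratio was larger on the female array in all 7 Mup genes that were well above background in every pool, and in 46.1% of all 19571 such genes. That share takes in genes with ratios of either sign, and several of the 7 have probes matched to more than 1 gene. The genes nearest to the mean Mup profile, described below, also had larger log2 ratios on the female array. They were 1.33 (female) and 1.05 (male) for Sfta2, 2.12 and 1.84 for Lypd2, and 1.78 and 1.77 for Upk3bl. Those of Ugt2b34 were 1.43 and 1.25, and those of Agr2 2.10 and 1.84. For Mup1, Mup17 and Mup19 both sides of the ratio moved: the Pparg-cKO signal was higher in the female pool and the control signal higher in the male pool in 3 of 3 genes. Among the 7 Mup probes well above background in both control pools, the male control exceeded the female control in 7, by a median of 0.58 on the log2 scale (0.20 to 1.63). Over all 26907 probes well above background in both control pools the median was 0.10, and 72.5% of them were higher in the male control. Among the 10 Mup probes well above background in both Pparg-cKO pools, the male pool was lower in all 10, with a median of -0.39. Over all 26396 such probes the median was 0.06, and 58.3% were higher in the male pool. With 1 pool of each sex and genotype these differences have no replicate check, and sex, dye and array cannot be told apart.

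Since most members had ratios of the same sign, their promoters are given for comparison. The RefSeq promoter table (GRCm38.p6) held 8 of the 11 genes, all but Mup1, Mup5 and Mup20, and the 250 bases before the annotated start were 85.7% to 100% identical between pairs, counting aligned bases without gaps (median 90.7%). The window of Mup19 (chr4:61782225-61782474, minus strand), a gene past the fold rule, and that of Mup21 (chr4:62150842-62151091, minus strand), the measured member whose ratios had opposite signs, were 88.5% identical. Capitals mark the letters TATATAA, which begin 31 bases before the annotated start of Mup19 and 8 bases before that of Mup21.

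Mup19: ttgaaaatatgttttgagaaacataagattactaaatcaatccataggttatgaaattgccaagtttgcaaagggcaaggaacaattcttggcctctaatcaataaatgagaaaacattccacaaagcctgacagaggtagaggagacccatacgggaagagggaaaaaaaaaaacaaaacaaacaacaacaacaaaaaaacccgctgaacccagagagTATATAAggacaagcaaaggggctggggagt

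Mup21: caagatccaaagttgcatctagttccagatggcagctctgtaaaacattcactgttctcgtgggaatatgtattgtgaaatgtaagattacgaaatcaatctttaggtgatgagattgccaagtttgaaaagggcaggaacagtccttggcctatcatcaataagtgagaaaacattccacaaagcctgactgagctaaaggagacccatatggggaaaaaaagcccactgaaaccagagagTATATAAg

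TATATAA was found on either strand in 7 of the 8 windows, all but that of Mup11, and in 3.04% of 32851 promoter windows of the same length. The Mup11 window ends, at its annotated start, in the bases that lead into TATATAA in the Mup19 window. TTCNNNGAA, a pattern bound by STAT factors, was in 0 of 8 and in 7.02% of all windows. AGGTCANAGGTCA, the direct repeat bound by PPAR and RXR dimers, was in 0 of 8 and in 0.0335% of all windows. Only TATATAA matched, so no motifs overlapped, and a window without a match says only that these letters are not in it. Mup21 held the same TATATAA letters as the genes with high ratios.

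Of the related lipocalin genes outside the Mup cluster, 6 of the 12 tested were lower on both arrays and 2 higher on both, where 26.2% and 26.6% of all genes tested were. The list held 22 genes for transport or binding proteins of the same fold, all measured, and 12 entered the limma test. After Benjamini-Hochberg adjustment 0 of these 12 were called in limma in either direction, where 0.382% of 22499 genes were called upward and 0.369% downward. At an unadjusted p under 0.05 there was 1, Lcn8, where 8.51% of the genes tested passed that level. Their median log2 ratio was -0.16, against 0.0094 over all genes tested, with -0.04 from the female pair and -0.24 from the male pair of pools. Rbp4, the plasma carrier of retinol, read 1870 and 1885 in the female and 2032 and 1841 in the male pools, with a mean log2 ratio of 0.08 ± 0.33 (SD, n = 2). Apod, a lipid-binding lipocalin of many tissues, read 808 and 919 in the female and 777 and 892 in the male pools, and Lcn12 read 157 and 147, and 132 and 153. Apod was lower on both arrays, with a mean of 1.14-fold, whereas the ratios of Lcn12 had opposite signs, 0.12 and -0.23 on the log2 scale.

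Lcn8, a lipocalin of the epididymis, read 25.7 and 18.2 in the female and 30.4 and 17.0 in the male pools, with a mean log2 ratio of 0.35 ± 0.18 (adjusted p = 0.498 in limma). Lcn2, which binds bacterial siderophores and is known from inflamed epithelia, read 54.9 and 56.8 in the female and 35.1 and 48.4 in the male pools. Ptgds, which is both a prostaglandin D synthase and a lipocalin, read 18.3, 14.7 and 25.2 in the other pools but 138 in the male control, so that its log2 ratios of 0.18 and -1.86 point opposite ways. The remaining 10 genes of the list, including the acute phase genes Orm1, Orm2 and Orm3 and the odorant-binding genes Obp2a and Obp2b, were not well above background in any pool. Ambp, which encodes the precursor of alpha-1-microglobulin and bikunin, read 30.5 and 34.8 in the female and 37.7 and 73.2 in the male pools, with a mean log2 ratio of -0.39. Obp1a, measured at 101 and 84.3 and at 78.7 and 84.8, had a mean log2 ratio of 0.08.

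**Figure D3:**
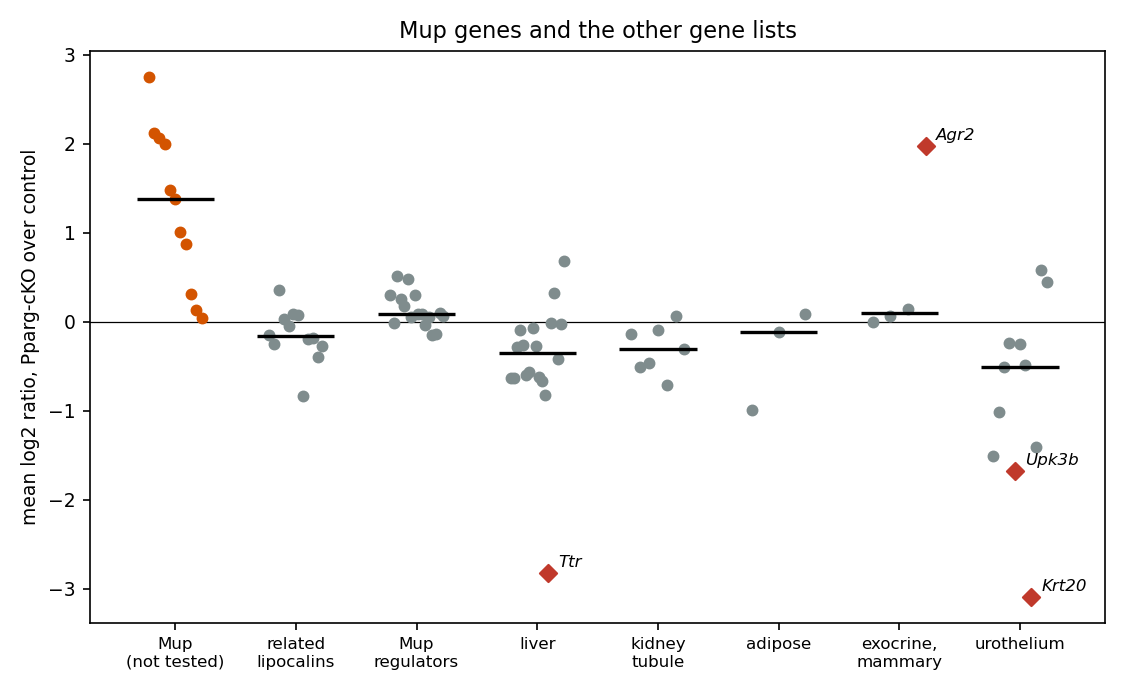
Mean log2 ratio of Pparg-cKO over control (n = 2 arrays) for the 11 Mup genes, which were not tested, and for the tested genes of 7 other lists, where bars are list medians and red diamonds are genes called in limma after adjustment. The Mup genes spread from 0.04 to 2.75, and the related lipocalins have a median of -0.16 with 0 called genes.

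The genes known to control Mup transcription in the liver were measured in the ureter as well. This list held the growth hormone receptor and its pathway, hepatic transcription factors and the receptors for glucocorticoid and androgen. All 16 genes entered the test, and limma called 0 after adjustment, and 1 of 16 had an unadjusted p under 0.05, where 8.51% of all genes tested did. That gene was Stat5a, which transmits growth hormone signals, at 86.8 and 65.1 in the female and 120 and 68.0 in the male pools, with a mean log2 ratio of 0.52 ± 0.23 (adjusted p = 0.295 in limma). The growth factor gene Igf1 read 5439 and 5618 in the female and 5101 and 5380 in the male pools, the glucocorticoid receptor gene Nr3c1 read 4592 and 4375, and 4628 and 4346, and the growth hormone target Socs2 read 1667 and 1570, and 1891 and 1658. Onecut1, a hepatic factor, gave under 5 signal units in every pool, and the list median was 0.09.

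Vomeronasal type 2 receptors, the family known to detect urinary proteins, were read by 93 genes on the arrays, of which 26 entered the test. Limma called 0 of them after adjustment and 0 had an unadjusted p under 0.05, against 8.51% of all genes tested. The brightest, Vmn2r55, read between 104.6 and 107.3 in the 4 pools. Vmn2r35 read between 31.3 and 48.9 and Vmn2r3 between 30.4 and 37.9, and in both genes the Pparg-cKO and control pools overlapped.

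Liver is the main known source of Mup transcripts, and liver markers were examined for this reason. Of 19 listed genes 18 were measured, all 18 entered the test, and all were well above background in at least some pools. Their summed processed signal was 4396 in the female Pparg-cKO pool against 5949 in its control, and 4864 against 9579 in the male pair. Without Trf and Ttr, left out after their values were seen, the sum was 2920 against 2804 in the female and 3290 against 5913 in the male pair, so that the lower female sum rested on these genes. Albumin (Alb) read 598 and 690 in the female and 725 and 1540 in the male pools. Alpha-fetoprotein (Afp) read 417 and 454 in the female and 487 and 1150 in the male pools. The male control thus stood above the other pools in both genes.

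Within the liver list limma called 1 gene lower and 0 higher, where 0.369% of all genes tested were called lower, and 8 of 18 had an unadjusted p under 0.05, where 8.51% did. Of these 8, 7 were lower and 1, Cyp2e1, was higher. The called gene was Ttr, a carrier of thyroxine and retinol that is not confined to liver. The study counts Ttr among the genes of superficial cells. It read 123 and 829 in the female and 110 and 1013 in the male pools, with a mean log2 ratio of -2.82 ± 0.38 (adjusted p = 0.00728 in limma). Transferrin (Trf) read 1352 and 2316 in the female and 1463 and 2652 in the male pools (adjusted p = 0.0608 in limma). Only Hpx and Cyp2e1 were higher on both arrays, 11 of 18 were lower on both, against 26.2% of all genes tested, and the list median was -0.35. That median rested mostly on the male array, with -0.06 on the female array alone and -0.59 on the male array alone. Serpina1b was not found by name. The part of liver RNA in the Mup signals was not tested.

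Markers of other cell types that pools of ureters could hold were read in the same way. Of 11 kidney tubule genes 7 were tested and limma called 0, with 3 at an unadjusted p under 0.05, where 8.51% of all genes tested were. The summed signal of all 11, tested or not, was 1783 and 1860 in the female and 1979 and 1920 in the male pools. Most of this sum came from the water channel gene Aqp1, at 1578 and 1595 in the female and 1830 and 1639 in the male pools. The other 6 tested genes were lower in the Pparg-cKO pool on both arrays, as were 26.2% of all genes tested, and the median of the 7 was -0.31. Without Aqp1, left out after its values were seen, the sum over the rest of the list was 206 and 264 in the female and 149 and 282 in the male pools. Lrp2 and Cubn, endocytic receptors that take up filtered proteins, read 91.1 and 98.6 and then 58.9 and 124 for Lrp2, and 59.8 and 83.3 and then 53.3 and 87.9 for Cubn. Slc22a6, an organic anion transporter, had a mean log2 ratio of -0.71 (adjusted p = 0.186 in limma). The part of tubule RNA in the Mup signals was not tested. Kap, an androgen-regulated tubule gene, Umod and Slc12a1 were not well above background in any pool. Of 7 adipose genes 3 were tested and 0 called, where 0.382% of all genes tested were called upward and 0.369% downward, and 1 had an unadjusted p under 0.05, where 8.51% did. The sum over all 7, of 14999.7 and 18902, and 15105 and 14544, was almost all Fabp4. Ucp1, the uncoupling protein of brown fat, read 4.71 and 4.39 in the female and 6.38 and 4.21 in the male pools. Leptin (Lep) was not well above background in any pool, and adiponectin (Adipoq) read 12.3 and 85.9 in the female and 8.24 and 13.1 in the male pools.

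Of 11 exocrine and mammary gland genes 4 were tested and 1 was called higher, where 0.382% of all genes tested were. Agr2, a protein disulfide isomerase of secretory epithelia, was the gene called by limma, at 1561 and 341 in the female and 1514 and 404 in the male pools, with a mean log2 ratio of 1.97 ± 0.19 (adjusted p = 0.00833 in limma). The other 3, Amy1, Bpifa2 and Scgb1a1, were not called, with Amy1 at 53.7 and 62.5, and 57.8 and 53.3, and Scgb1a1 at 10.1 and 7.85, and 11.1 and 7.25, and 7 of the list, among them the milk genes Csn2 and Wap and the lacrimal gene Prol1, were not well above background in any pool. The summed signal of all 11 was 1643 and 422 in the female and 1596 and 481 in the male pools, almost all of it from Agr2.

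Most urothelial markers were lower in the Pparg-cKO pools. All 11 entered the test, limma called 2 lower and 0 higher, where 0.369% of all genes tested were called lower, and 8 were lower and 2 higher on both arrays, against 26.2% and 26.6% of all genes tested. At an unadjusted p under 0.05 there were 8, 7 lower and 1 higher, against 8.51% of all genes tested. Past the fold rule downward were 5, Upk1a, Upk1b, Upk3b, Krt20 and Shh, against 0.491% of all genes measured. The epithelial adhesion genes Epcam and Cdh1 read higher in the Pparg-cKO pools, with Epcam at 1332 and 973 in the female and 1486 and 1049 in the male pools (adjusted p = 0.273 in limma) and Cdh1 at 2871 and 2553, and 5012 and 2499 (adjusted p = 0.642 in limma). Krt20, a keratin of superficial cells, read 168 and 1557 in the female and 144 and 1407 in the male pools (adjusted p = 0.00620 in limma). Upk3b, a uroplakin gene, read 297 and 1013, and 248 and 847 (adjusted p = 0.00884 in limma). Shh, which encodes a secreted signal, read 30.4 and 144, and 52.1 and 130 (adjusted p = 0.0580 in limma), and the list sum was 51760 and 85354 in the female and 59892 and 75006 in the male pools. Of the brightest genes of the list, Upk3a read 31198 and 41122 in the female and 32498 and 36165 in the male pools, Upk1a 4177 and 14897, and 5461 and 12494, and Upk1b 5041 and 12083, and 6246 and 10385. The part of these cells in the Mup signals was not tested.

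The genes whose profile over the 4 pools came closest to the mean Mup profile were sought among 11192 bright genes, with log2 signals floored at 10 and centred per gene and the Euclidean distance as the measure. The nearest were Sfta2, a surfactant-associated gene, at a distance of 0.22, Lypd2 at 0.33, Upk3bl at 0.37, Ugt2b34, a glucuronosyltransferase gene, at 0.39, and Agr2 at 0.41. Sfta2 read 122 and 36.1 in the female and 109 and 44.5 in the male pools, Lypd2 3460 and 776, and 3308 and 962, and Upk3bl 2901 and 820, and 3317 and 1027. In each of the 5 genes both Pparg-cKO pools lay above both controls and the male control lay above the female control, as in the mean profile. That profile was also higher in the female than in the male Pparg-cKO pool, as were Sfta2, Lypd2 and Agr2, whereas Upk3bl and Ugt2b34, the latter at 307 and 332, were lower there. They were chosen for this pattern over 4 pools, and their likeness was not tested.

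**Figure D4:**
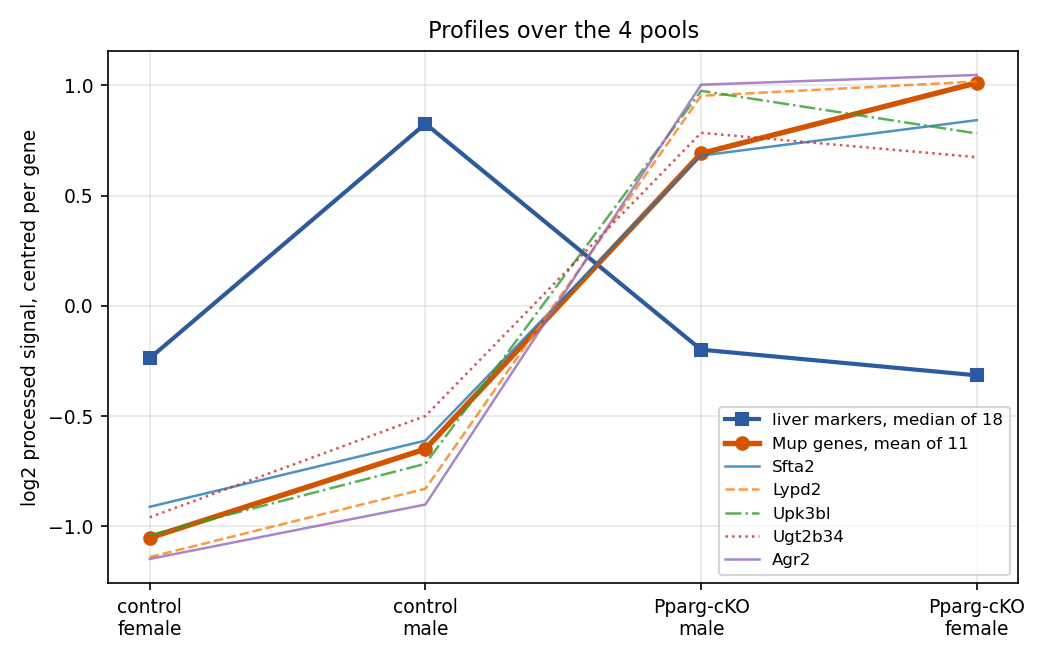
Log2 processed signal over the 4 pools, centred per gene, for the mean of the 11 Mup genes (thick line), the 5 genes nearest to it and the median of 18 liver markers. The Mup mean runs from -1.05 in the female control to 1.01 in the female Pparg-cKO pool, whereas the liver median is highest, at 0.83, in the male control.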

How the data were processed

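Per the file headers, linear spot intensity was recorded as mean signal, median local background and a processed signal, which Agilent Feature Extraction 10.7.3.1 (named in the submitters' processing notes) had corrected for background and dye, with small values replaced. The authors' deposited value table gave a score per probe and array, a signed fold in which a fall is negative. The deposited log10 ratio column of the scanner files was not used. The members and gene lists were chosen with earlier results of these data known. Spots with an outlier flag (2.87% and 3.24%) were left out, intensity was corrected by normexp with an offset of 50, and red over green log2 ratios were loess-normalised per array (limma 3.58.1, R 4.3.3), with control spots at weight 0. Spots were averaged per probe, and a gene took its probe with the highest mean brightness. The sign followed the deposited table, which correlated with the log2 quotient of red and green processed signals (floored at 6) at 0.989 on replicate 1 and -0.993 on replicate 2. Limma tested the mean of the 2 ratios against 0 for 22499 genes, those with 1 or both channels well above background on each array, two-sided, with Benjamini-Hochberg adjustment at 0.05. It was tested on simulated data. It was used for the lists of related lipocalins, regulators, receptors and cell type markers and never for the Mup genes. Named were all Mup genes, list members that were called or past the fold rule, the brightest 3 of a list and the 5 nearest profiles, and a few dim or discordant list members were added after their values were seen. Precision is limited by the number of arrays. Gene names were those of the design. The floxed region of Pparg relative to its probe was not analysed here.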

Additional observations from a re-analysis of the deposited data

How the results depend on the processing

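The dye labels as written turn the family median from 1.38 to -1.38. Scanner-processed signals gave 2.51 over the genes and 2.38 over the probes, the deposited values gave 2.19 and 1.97, and normexp without an offset 1.71 over the probes, against 1.38 and 1.00. Leaving out 1 array gave 1.09 to 1.67 over the genes and 0.96 to 1.04 over the probes. Mup1, Mup17 and Mup19 were past the fold rule under each of the 10 alternatives run for it, and the count of Mup genes past it was 3 to 5 with 1 array left out (5 on the female array alone) and 8 without a minimum signal. Over all genes the count of 258 became 112 at 2-fold and 444 to 1253 with 1 array left out, the higher value being the male array alone. The 111 upward and 147 downward became 965 and 288 on the male array alone, 176 and 268 on the female array alone and 115 and 102 with median centring, so the shares of all genes past the rule move with them. Limma called 169 genes, 571 without an offset, 94 without the filter on dim probes and 0 with the deposited table (2101 at an unadjusted p under 0.05), and the cause was not tested. The 8.51% of genes tested with an unadjusted p under 0.05 became 4.92% with median centring and 9.85% without an offset, with 0 and 4 related lipocalins and 1 and 4 kidney tubule genes among them, against 1 and 3. The liver count of 8 of 18 at that level became 2 with the deposited table, where 9.34% of all genes passed. It was 5 without the filter on dim probes, 9 with median centring and 13 without an offset. Related lipocalins and regulators had 0 calls under each of the 7 alternatives. Agr2, Ttr, Krt20 and Upk3b were called under 6 of 7, the deposited table being the exception, and without an offset limma called 3 liver, 5 urothelial, 1 kidney tubule and 1 adipose gene lower, the urothelial count of 5 also with median centring. The medians of related lipocalins and liver markers kept their sign under the 8 alternatives run for them, which leave the direction as it is, with the liver median at -0.06 to -0.59 with 1 array left out. The limma test was already paired by array, since each ratio sets the pools of 1 array against each other, and no further replicate number was left to block on. Low signal is a limit: 7 of 13 Mup probes were well above background in both control pools, and the offset and the floor change the size of a dim probe's ratio.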

Other observations

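A further 11 probes carry the words major urinary protein in their description but not in a gene name that the rule takes. Their median log2 ratio was 1.10. Of these, 6 had both Pparg-cKO pools well above background, and all 6 had a ratio above 0 on both arrays, as had 18.2% of all genes measured. They belong by description to the family that was picked for this ratio, so nothing is read from these counts. The probe of LOC100048884, a member of the family by its description, read 211 and 20.3 in the female and 164 and 33.2 in the male pools. A probe for Mup pseudogene 13 read 178 and 11.8, and 130 and 22.4. These were the only 2 of the 11 with enough signal for the fold rule, and both were past it upward, against 0.792% of all genes bright enough. Both reached that signal through their Pparg-cKO pools alone, so nothing is read from this count either. A probe for pseudogene 12, at 57.6 and 3.25 and at 43.8 and 3.55, was higher in both Pparg-cKO pools too, whereas the probe for pseudogene 15 was at 0.641 to 1.83 in all pools. Outside the member probes, 5 probes shared a run of at least 20 bases with a member, and a probe without a gene description shared such a run with Mup4 and Mup20 and read 39.2 and 6.82 in the female and 28.6 and 7.20 in the male pools. These probes were singled out after their values were seen.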
